A study of Mus musculus with 121 samples.

Results

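Cdkn1a, Ccng1, Btg2, Mdm2 and Trp53inp1 are target genes of the tumour suppressor p53 that act in cell-cycle arrest and in the feedback on p53 itself. They were chosen by name, each through the brightest probe with a value on at least 90% of the arrays. They and the gene lists below were chosen with earlier results of these data known, so their counts are a description only. All 5 genes passed the filters with 1 probe each, among 12962 genes tested. The expression arrays came from 6 mouse tumours, most of them irradiated, with 81 arrays of a gamma-ray and 40 of a carbon-ion experiment.

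The series' design text describes tumours transplanted into the hind legs of male C3H/HeMs mice and locally irradiated with a single dose, with non-irradiated mice as controls. The tumours were a radiation-induced C3H fibrosarcoma, the spontaneous fibrosarcoma nfsa, the spontaneous mammary carcinomas mmca and mca4, and the spontaneous squamous cell carcinomas scc7 and nrs1. In the gamma-ray experiment the radiation-induced fibrosarcoma, nfsa, mmca and mca4 were taken at day 1 after 0, 30, 50 or 70 Gy, with 2 arrays per group. Later gamma groups of 2 or 3 arrays covered days 8, 16 and 22 in the radiation-induced fibrosarcoma, days 4 and 9 in nfsa, days 9 and 19 in mmca, and days 11, 25 and 41 in mca4. A second unirradiated mmca group was dated day 9. Gamma groups of scc7 at days 8, 23 and 35 and of nrs1 at days 8 and 15 were all irradiated. The carbon-ion experiment, with 2 arrays per group, followed mmca and mca4 from an unirradiated 0 h group through 6 h and days 1, 3, 5 and 20 after 30 Gy, and compared day 5 with day 20 (day 42 in scc7) in the other tumours. The labels do not say whether arrays of a group came from separate animals, so the p-values measure the spread between these arrays, which may be technical. Whole tumours were assayed, so fewer cells of a type and less RNA per cell cannot be told apart.

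DNA damage stabilises p53, which then binds DNA at paired half-sites and switches on its target genes. Cdkn1a encodes p21, an inhibitor of cyclin-dependent kinases that holds cells before S phase; Btg2 encodes an antiproliferative protein that binds the CCR4-NOT deadenylase. Mdm2 encodes the ubiquitin ligase that degrades p53 and so closes a negative feedback loop, Ccng1 encodes cyclin G1, which recruits protein phosphatase 2A to Mdm2, and Trp53inp1 encodes a stress-induced nuclear protein that acts together with p53.

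The promoters of Cdkn1a and Ccng1 are shown because these were the members that were higher at every dose in every tumour tested at day 1, and because each held a near-complete p53 site. Sequences are from RefSeq, build GRCm38.p6, written 5' to 3' along the gene's strand, with the site in capitals. The p53 consensus was searched by name as a full site of 20 bases (a pair of adjacent half-sites of 10 bases without spacer, at most 1 mismatch, both strands) in windows from 250 bases before to 50 bases after each start. The Cdkn1a stretch lies at chr17:29090878-29090978 on the plus strand, and its site ends 31 bases before the start. The Ccng1 stretch lies at chr11:40755412-40755531 on the minus strand, and its site ends 175 bases before the start.
Cdkn1a: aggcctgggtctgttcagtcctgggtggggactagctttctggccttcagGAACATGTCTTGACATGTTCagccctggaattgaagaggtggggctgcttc
Ccng1: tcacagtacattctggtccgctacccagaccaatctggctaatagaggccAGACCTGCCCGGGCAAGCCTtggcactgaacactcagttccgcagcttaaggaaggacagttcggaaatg
Each site had 1 mismatch to the consensus. Of 32851 such windows over 27025 genes, 29 (0.0883%) held a site of this kind. Windows were at hand for 4 of the 5 members, and 2 of their 5 windows held a site. Cdkn1a had a second window, at another start (chr17:29093519-29093818, plus strand), whose closest stretch had 5 mismatches. The closest stretch in Btg2 had 4 mismatches and that in Mdm2 had 5. A match of letters is a description of the window only.

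Intensities are the authors' deposited values, in which gamma array medians lay between 1.31 and 1.85 and carbon array medians between 1.04 and 1.07. Between 9.99% and 18.6% of probes lacked a value on the gamma arrays, and between 0.541% and 4.92% on the carbon arrays. At gamma day 1 this share was 13.6% to 15.3% at 30 Gy and 10.4% to 11.4% at 70 Gy, with the 0 Gy arrays at 10.1% to 15.2%. The listed epithelial genes averaged 2.93 to 4.86 (log2 intensity, over group means) in mmca and 3.29 to 4.32 in mca4, against -2.00 to -0.43 in the fibrosarcomas. The squamous tumours went apart: nrs1 held epithelial and squamous keratinocyte genes at 5.67 to 5.81 and 7.21 to 7.25, whereas scc7 had them at -1.19 to -0.92 and -0.12 to 0.11, so the markers of the labelled cell type were near the fibrosarcoma level there.

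Before irradiation the tumours differed most in Mdm2. Its intensity was 1.28 and 0.996 on the arrays of the radiation-induced fibrosarcoma, 1.05 and 1.80 in nfsa, 14.4 and 20.5 in mca4, and 51.1 and 53.1 in mmca. Both mammary carcinomas lay above both fibrosarcomas without overlap, and mmca lay above mca4, while the fibrosarcomas overlapped. On the log2 scale the radiation-induced fibrosarcoma was below mmca by -5.53 ± 0.19 (SE; adjusted p = 4.89e-31, limma) and below mca4 by -3.93 ± 0.19, and mmca exceeded mca4 by 1.60 ± 0.19 (adjusted p = 1.41e-09). The mca4 arrays of the carbon experiment gave Mdm2 intensities of 75.7 and 65.7 at 0 h, and those of mmca gave 68.1 and 55.7. These are set side by side only, since the experiments were analysed apart.

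The other members were ordered otherwise. Unirradiated Trp53inp1 read 48.7 and 47.5 in the radiation-induced fibrosarcoma, 16.9 and 20.3 in nfsa, 12.6 and 15.8 in mca4, and 13.1 and 12.4 in mmca. The radiation-induced fibrosarcoma stood above each other tumour by 1.37 to 1.91 log2 units, and mmca and mca4 did not differ beyond their spread (-0.15 ± 0.12). Btg2, a dim probe, read 0.363 and 0.345 in the radiation-induced fibrosarcoma and 0.317 and 0.290 in mca4, below 0.774 and 0.740 in mmca. The nfsa pair spanned 0.545 to 1.24. Cdkn1a spanned 11.8 to 26.7 and Ccng1 8.08 to 14.5 over the 8 arrays, and these were the narrowest ranges. Over the 6 pairs of unirradiated tumours 18 of 30 member comparisons were called at an adjusted p below 0.05, when 53.6% of all gene and pair combinations were called. Calls that rested on a single array were Btg2 and Cdkn1a between the fibrosarcomas (adjusted p = 0.145 without the second nfsa array and 0.472 without the first), Cdkn1a between nfsa and mca4 (0.379 without the first nfsa array), Trp53inp1 between nfsa and mca4 (0.191 without the first mca4 array) and Ccng1 between the radiation-induced fibrosarcoma and each mammary carcinoma (0.524 without the first mmca array and 0.094 without the second mca4 array). Between unirradiated mmca at day 9 and day 1, none of the 5 members was called in limma, none had an unadjusted p below 0.05, and 16.3% of all genes were called.

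**Figure D1:**
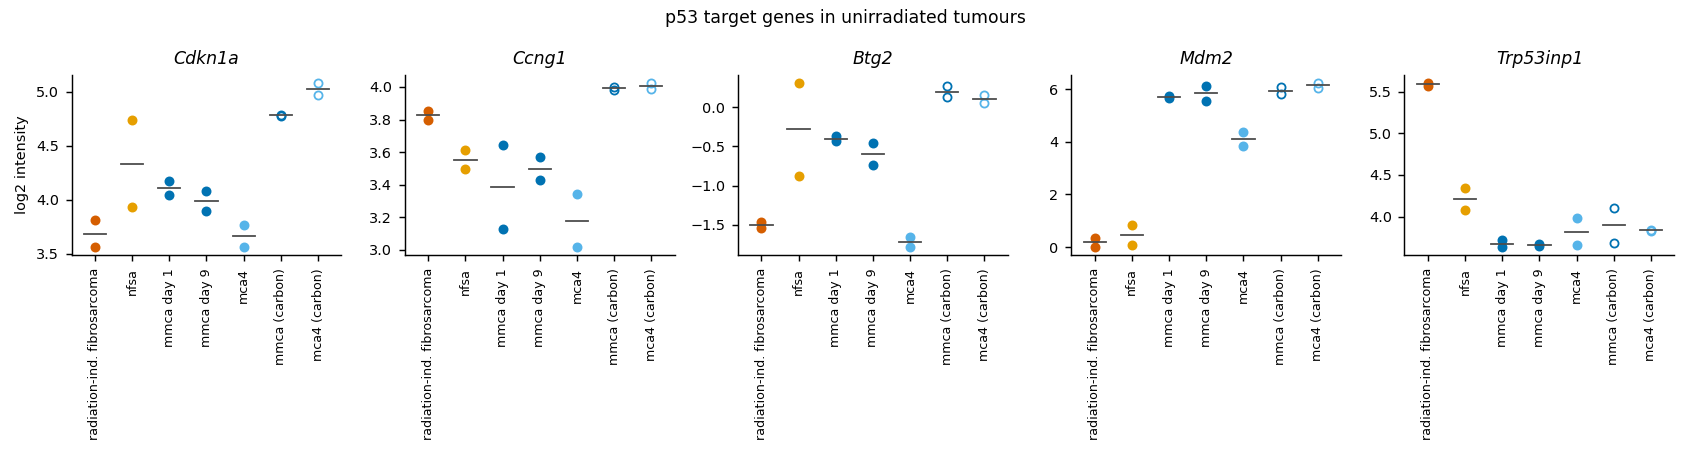
Log2 intensity of the 5 p53 target genes on unirradiated arrays, by tumour. Filled points are gamma arrays, open points the 0 h arrays of the carbon experiment, and bars are means of the log2 values. Mdm2 separates mmca and mca4 from both fibrosarcomas, and Trp53inp1 is highest in the radiation-induced fibrosarcoma.

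At day 1 after gamma rays Cdkn1a and Ccng1 were higher in all 4 tumours at all 3 doses, Mdm2 and Btg2 were higher in some, and Trp53inp1 was called at a single tumour and dose. Averaged over tumours and doses, 4 of 5 members were higher; 23.2% of all 12848 genes tested were called higher and 55.8% in either direction. The members' median change was 0.93 on the log2 scale, against -0.04 over all genes. The markers moved too: 4 of 6 macrophage genes were higher and 1, Cd14, was lower (-0.20) in the same mean, with a median change of 0.39. The part of these markers in these results was not tested.

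Cdkn1a, the p21 gene, gave 14.1 and 11.8 without irradiation in the radiation-induced fibrosarcoma, 157 and 147 after 30 Gy, 96.9 and 108 after 50 Gy, and 58.3 and 59.0 after 70 Gy. In nfsa the same order of groups gave 26.7 and 15.2, then 143 and 166, 39.7 and 34.4, and 54.1 and 67.9. Every irradiated array of these fibrosarcomas lay above the unirradiated ones, and the 30 Gy arrays were the highest.
In mmca Cdkn1a read 18.1 and 16.6 at 0 Gy, 70.8 and 63.3 at 30 Gy, 26.7 and 30.4 at 50 Gy, and 32.1 and 29.04 at 70 Gy. The mca4 arrays gave 11.8 and 13.6, then 47.9 and 69.9, 65.8 and 76.2, and 38.8 and 40.7. Again no irradiated array overlapped the controls of its tumour, and in mca4 the 50 Gy pair overlapped the 30 Gy pair at the top. The change over 12 tumour and dose combinations ran from 0.72 to 3.56 on the log2 scale and was called higher in 12 of 12, where 13.5% of all gene and combination pairs were called higher and 17.7% lower. The largest was 3.56 ± 0.21 at 30 Gy in the radiation-induced fibrosarcoma, an 11.8-fold rise (adjusted p = 6.91e-19). The smallest calls depended on single arrays. At 50 Gy in nfsa the adjusted p was 0.0105 with all arrays, 0.362 without the second unirradiated array and 0.137 without the first irradiated one. In mmca the call at 50 Gy was lost without the second unirradiated or the second irradiated array (0.122 and 0.143), and the call at 70 Gy without the second unirradiated or the first irradiated array (0.0544 and 0.0651).

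Ccng1, the cyclin G1 gene, showed the most even rise. Its arrays read 13.9 and 14.5 at 0 Gy in the radiation-induced fibrosarcoma, 41.2 and 46.4 at 30 Gy, 52.4 and 67.3 at 50 Gy, and 36.8 and 36.0 at 70 Gy. In nfsa they read 12.2 and 11.3, then 38.3 and 39.4, 38.9 and 32.3, and 30.5 and 32.0. Every irradiated array of both tumours lay above every control.
In mmca Ccng1 read 8.75 and 12.5 at 0 Gy, 27.3 and 27.2 at 30 Gy, 22.1 and 19.3 at 50 Gy, and 28.9 and 25.6 at 70 Gy. For mca4 the values were 10.1 and 8.08, then 23.7 and 24.9, 38.9 and 37.2, and 25.1 and 25.9. Controls and irradiated arrays did not overlap in either carcinoma. The change was called in 12 of 12 combinations, from 0.98 to 2.07, and its mean over tumours was 1.54 ± 0.08 (2.91-fold, adjusted p = 1.87e-22). The tumour means lay between 1.25 in mmca and 1.68 in the radiation-induced fibrosarcoma.

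Mdm2, the feedback ligase, followed tumour and dose less evenly. In the radiation-induced fibrosarcoma it read 1.28 and 0.996 at 0 Gy, 3.17 and 3.19 at 30 Gy, 1.71 and 2.10 at 50 Gy, and 6.41 and 5.85 at 70 Gy. In nfsa it read 1.05 and 1.80, then 1.78 and 1.95, 5.52 and 4.03, and 5.39 and 4.83. In both fibrosarcomas the 70 Gy arrays lay well above the controls, while the 30 Gy pair of nfsa overlapped them.
In mmca, with its high starting level, Mdm2 read 51.1 and 53.1 at 0 Gy, 35.0 and 33.9 at 30 Gy, 68.99 and 53.4 at 50 Gy, and 78.3 and 63.2 at 70 Gy. Its mca4 arrays read 14.4 and 20.5, then 33.97 and 36.1, 19.8 and 18.9, and 33.7 and 42.5. The 30 Gy pair of mmca lay below its controls and the 50 Gy pair of mca4 lay among them. Mdm2 was called higher in 7 of the 12 combinations and lower in 1, mmca at 30 Gy (-0.60 ± 0.19, adjusted p = 0.0108; 0.0641 without the second unirradiated array and 0.0656 without the second irradiated one). The call at 50 Gy in the radiation-induced fibrosarcoma (0.75 ± 0.19) had an adjusted p of 0.0625 without the second unirradiated array. The 30 Gy value of nfsa was 0.44 ± 0.19 (adjusted p = 0.067), and 0.82 (0.00478) without the second unirradiated array.

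Btg2, the antiproliferative gene, was measured close to the array medians or below them. It read 0.363 and 0.345 at 0 Gy in the radiation-induced fibrosarcoma, 0.747 and 0.825 at 30 Gy, 0.338 and 0.303 at 50 Gy, and 1.30 and 1.14 at 70 Gy. In mca4 it read 0.317 and 0.290, then 0.704 and 0.839, 0.245 and 0.240, and 0.760 and 0.712. These tumours shared one order, with 30 and 70 Gy above the controls and 50 Gy at or below them.
In mmca Btg2 read 0.774 and 0.740 at 0 Gy, 0.493 and 0.392 at 30 Gy, 1.25 and 1.27 at 50 Gy, and 1.46 and 1.39 at 70 Gy. In nfsa the unirradiated pair of 0.545 and 1.24 spanned all 6 irradiated arrays (0.576 to 1.15). Btg2 was called higher in 5 combinations and lower in 1, mmca at 30 Gy (-0.78 ± 0.29, adjusted p = 0.0283), a call lost without either unirradiated array (0.115 and 0.0824) or without the second irradiated one (0.204). The rise in mmca at 70 Gy (0.91 ± 0.29) was lost without any 1 of its 4 arrays (adjusted p = 0.0697 to 0.115). The mean rise over doses in mca4 (0.77 ± 0.24) had an adjusted p of 0.0981 without the second unirradiated array.

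Trp53inp1, the nuclear stress protein gene, stayed within 10.5 to 20.4 in nfsa, mmca and mca4 at day 1, and within 41.7 to 48.7 in the radiation-induced fibrosarcoma. The called group was mmca at 30 Gy, with 17.6 and 19.8 against 13.1 and 12.4 in the controls (0.55 ± 0.12, adjusted p = 0.000441). The other 11 combinations were not called, with changes of -0.25 to 0.16.

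**Figure D2:**
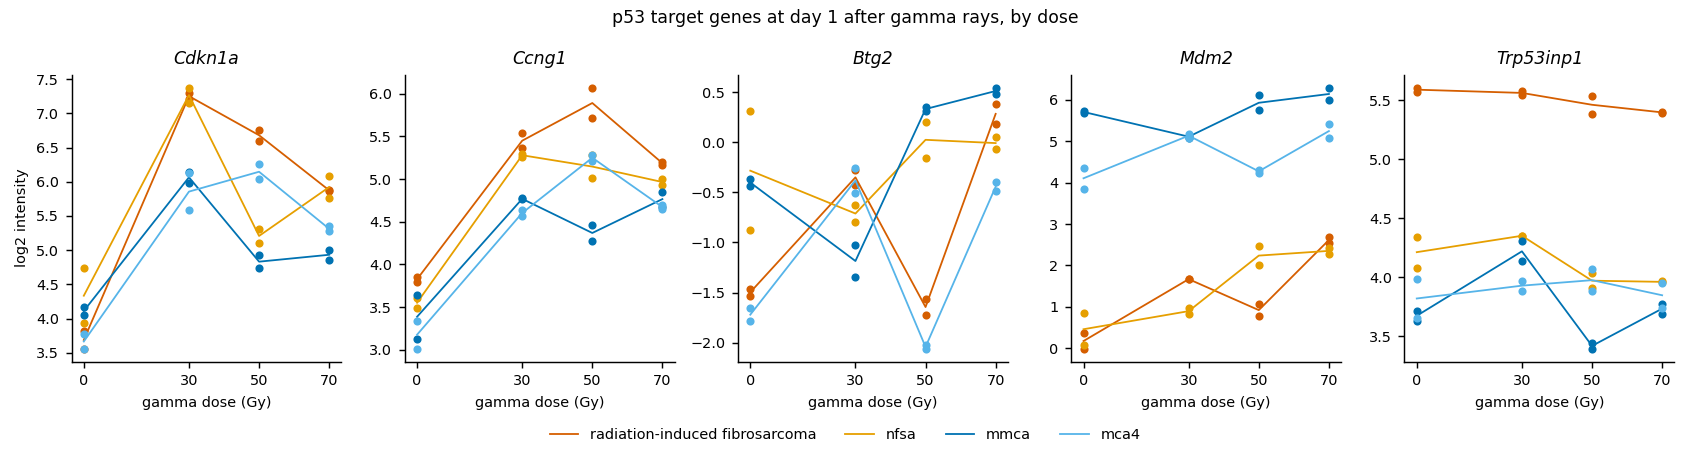
Log2 intensity of the 5 p53 target genes at day 1 against gamma dose in Gy, by tumour. Points are single arrays and lines join group means of the log2 values. Cdkn1a and Ccng1 lie above the 0 Gy arrays at every dose, whereas Mdm2 in mmca falls at 30 Gy and Btg2 in mca4 and the radiation-induced fibrosarcoma dips at 50 Gy.

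The highest dose did not give the highest values of all members. From 30 to 70 Gy, averaged over the tumours, Cdkn1a fell by 1.10 ± 0.11 on the log2 scale and Trp53inp1 by 0.28 ± 0.06, Mdm2 rose by 0.88 ± 0.09 and Btg2 by 0.74 ± 0.14, and Ccng1 gave -0.13 ± 0.10 (not called). So 4 of 5 members were called, where 45.6% of all genes were. Cdkn1a at 70 Gy lay below its 30 Gy arrays without overlap in all 4 tumours, though in mca4 the difference of -0.54 ± 0.21 was not called, and none of the 5 members was called in mca4 (7.51% of all genes were). With the mean of each pair of arrays taken as 1 value, none of the 5 members was called (adjusted p = 0.092 for Cdkn1a, 0.172 for Mdm2, 0.306 for Btg2 and 0.205 for Trp53inp1). Trp53inp1 also missed the threshold after quantile normalization (adjusted p = 0.0511). The share of probes without a value was lower on every 70 Gy array than on any 30 Gy array, so dose and this share cannot be told apart here.

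Dose groups whose mean missing share lay on the same side of 12% as that of their control group, called doses of like missing share here, were also compared on their own, a choice made after seeing the data. They were 30 and 50 Gy in the radiation-induced fibrosarcoma and mca4, 50 and 70 Gy in nfsa, and 30 Gy in mmca, so the doses differ between tumours. The nfsa control arrays lay on both sides of this limit, at 10.1% and 12.5%. The mean change over tumours was then 2.20 ± 0.10 for Cdkn1a, 1.62 ± 0.09 for Ccng1 and 0.74 ± 0.09 for Mdm2, all called. Btg2 gave 0.13 ± 0.13 (adjusted p = 0.415, against 0.51 ± 0.12 and 0.000261 over all doses), and Trp53inp1 0.09 ± 0.06 (against -0.005 ± 0.05 over all doses).

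**Figure D3:**
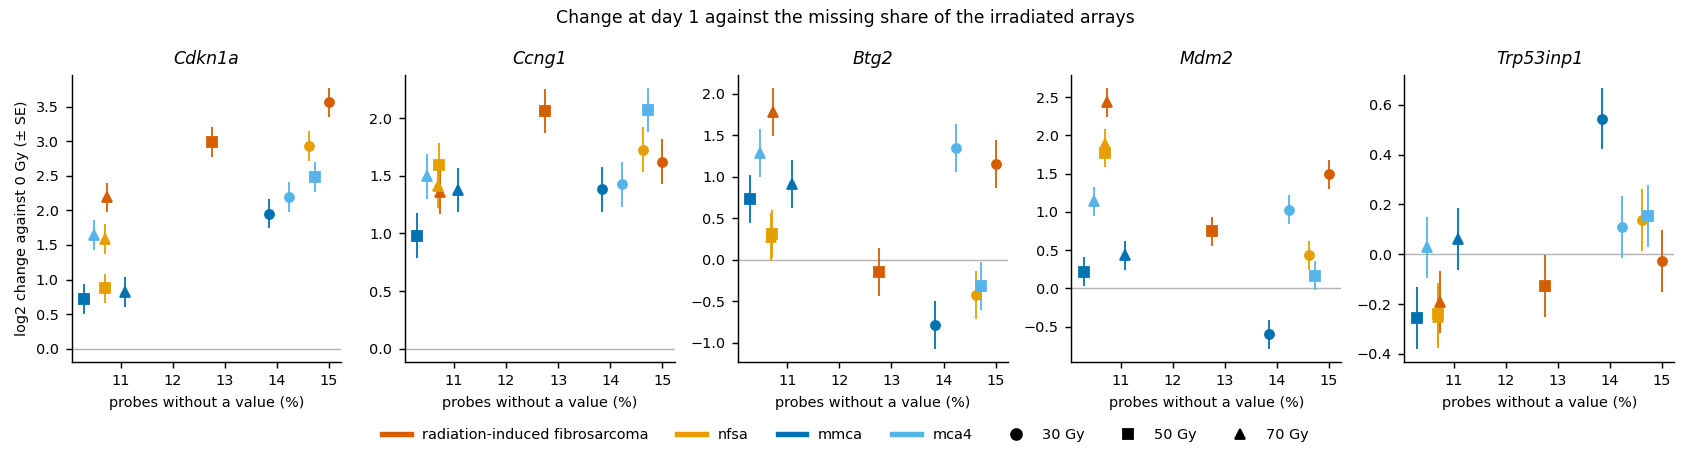
Change at day 1 against 0 Gy (log2, ± SE) plotted over the mean percentage of probes without a value in the irradiated group; colour gives the tumour and marker shape the dose. The 70 Gy groups sit between 10.5% and 11.1% and the 30 Gy groups between 13.8% and 15.0%.

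The size of the response was compared between tumour types as the fibrosarcoma mean minus the mammary carcinoma mean. Mdm2 rose more in the fibrosarcomas, by 1.06 ± 0.15 (adjusted p = 3.52e-06), and Cdkn1a by 0.72 ± 0.17 (adjusted p = 0.00286). The tumour means behind Mdm2 were 1.56 in the radiation-induced fibrosarcoma, 1.37 in nfsa, 0.78 in mca4 and 0.02 in mmca. Only these 2 members were called, when 16.4% of all genes were. On doses of like missing share the Mdm2 difference was 1.48 ± 0.17 and that of Cdkn1a 0.11 ± 0.19 (adjusted p = 0.737), and Trp53inp1 then differed by -0.50 ± 0.11 (adjusted p = 0.00126; -0.22 ± 0.10 over all doses). With 1 value per group neither was called (adjusted p = 0.999936 for each), nor was any other gene. Quantile normalization moved the share of higher genes among the calls of this contrast from 18.2% to 39.9%.

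Within each type the tumours also differed in Cdkn1a. The radiation-induced fibrosarcoma exceeded nfsa in its change by 1.12 ± 0.25 (adjusted p = 0.0014), the 1 of 5 members called when 14.1% of all genes were, and the call was lost without the first unirradiated nfsa array (0.71, adjusted p = 0.0865) or with 1 value per group (0.999997). The change in mmca was below that in mca4 by -0.94 ± 0.25 for Cdkn1a and -0.76 ± 0.22 for Mdm2, 2 of 5 members when 29.9% of all genes were called. Here Cdkn1a missed the threshold on doses of like missing share (-0.38 ± 0.28), and Mdm2 missed it without the first unirradiated mca4 array (-0.51, adjusted p = 0.138). With 1 value per group neither was called (adjusted p = 0.861 and 0.885). In mmca at day 1, 4 of 6 macrophage genes and 4 of 7 skeletal muscle genes were higher, with median changes of 1.26 and 2.58. Of all genes 15.3% were higher in that mean of doses and 12.3% were lower. The part of these markers in the smaller response was not tested.

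After day 1, in the mean of 4 tumours, Cdkn1a and Ccng1 came down while Mdm2 and Btg2 rose further. Over the mean of groups at days 8 to 25, the change from unirradiated tumours was 1.31 ± 0.08 for Mdm2, 0.74 ± 0.12 for Btg2, 0.54 ± 0.08 for Ccng1, 0.52 ± 0.09 for Cdkn1a and -0.21 ± 0.05 for Trp53inp1. All 5 were called, 4 higher and 1 lower, where 71.1% of all genes were called, 32.7% higher and 38.3% lower. Against day 1 at the same dose, Cdkn1a fell by 1.75 ± 0.07, Ccng1 by 1.02 ± 0.06 and Trp53inp1 by 0.25 ± 0.04, whereas Mdm2 rose by 0.66 ± 0.06 and Btg2 by 0.41 ± 0.09; 72.4% of all genes were called. In the later mean all 6 T and NK cell genes were higher, with a median change of 1.74, as were 5 of 6 macrophage genes (0.83); their part in the members' changes was not tested.

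In the radiation-induced fibrosarcoma Cdkn1a read 37.6, 33.6 and 33.2 at day 8 after 30 Gy, 31.4, 33.2 and 20.5 at day 16, and 42.6, 50.2 and 41.7 at day 22 after 50 Gy. These arrays lay between the controls and the day 1 arrays of the same dose. Mdm2 read 3.66, 3.07 and 3.71, then 3.93, 3.92 and 4.70, and 5.10, 7.69 and 7.28 in the same groups, against 1.28 and 0.996 in controls. Its changes of 1.62, 1.88 and 2.54 were all called. Ccng1 gave changes of 0.31 and -0.11 after 30 Gy and -0.0048 after 50 Gy, read 10.8 to 19.5 on these arrays, and was not called at any of these times; after quantile normalization day 8 was called (0.44, adjusted p = 0.0149).

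In nfsa Cdkn1a read 27.4, 29.4 and 33.5 at day 4 after 30 Gy and 28.0, 30.9 and 54.8 after 50 Gy, then 15.2, 13.7 and 10.2 at day 9 after 30 Gy and 16.5, 16.7 and 21.1 after 50 Gy. At day 9 the arrays after 30 Gy lay below both controls of 26.7 and 15.24, the highest of them at 15.21, and those after 50 Gy lay between the controls. The change at day 9 after 30 Gy was -0.65 ± 0.19 (adjusted p = 0.00501), a call lost without the first control array (-0.25, 0.421) or without the third day 9 array (0.0535). The rises at day 4 were lost without the second control array, with adjusted p-values of 0.603 after 30 Gy and 0.12 after 50 Gy, and that after 30 Gy also without the third irradiated array (0.057). Mdm2 read 4.37 to 5.34 over the 6 arrays of day 4 and 2.44 to 2.97 over the 6 arrays of day 9, all above its controls. Its changes were 1.75 and 1.81 at day 4 and 0.91 and 1.00 at day 9, all called; those of day 9 were 0.52 and 0.62, still called, without the first control array. Against day 1 after the same 50 Gy, though, Mdm2 at day 9 was lower (-0.77 ± 0.17). Btg2 read 0.339, 0.302 and 0.319 at day 9 after 30 Gy, below both controls of 0.545 and 1.24. This fall of -1.36 ± 0.26 (adjusted p = 3.20e-05) was -0.77 (0.0458) without the second control array, and Btg2 was also below its day 1 level (-0.94 ± 0.26).

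In mca4 the Mdm2 arrays read 69.4, 66.9 and 75.0 at day 11 after 30 Gy, 58.2, 60.8 and 59.9 at day 25 after 50 Gy, and 75.0 on both arrays of day 41. All stood above every mca4 array of day 1, control or irradiated. The changes from the control were 2.03 ± 0.17, 1.80 ± 0.17 and 2.13 ± 0.19, and the missing shares of these groups (13.4% to 13.9%) were near that of the controls (14.2%). These arrays read near the unirradiated mca4 arrays of the carbon experiment (75.7 and 65.7). Whether labels or batches differ between the experiments was not tested, so the changes hold against the gamma controls only. Cdkn1a read 23.7, 21.2 and 21.1, then 14.4, 19.0 and 17.0, and 21.6 on both arrays of day 41. Its changes of 0.79 at day 11 and 0.77 at day 41 were called, and that of 0.40 at day 25 was not (adjusted p = 0.0769; 0.0392 without the first array of that day). Btg2 was 1.79, 1.45 and 0.93 higher at these times, the last lost without the first day 41 array (adjusted p = 0.0615).

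In mmca Mdm2 read 81.1, 89.2 and 64.8 at day 9 after 30 Gy and 69.1, 67.6 and 74.6 at day 19 after 50 Gy, beside day 9 controls of 69.4 and 47.3. The groups overlapped at both times, and at neither was Mdm2 called (0.44 and 0.30; adjusted p = 0.0698 and 0.159). Without the first control array both values passed (0.72 and 0.57; 0.019 and 0.0284), and without the third irradiated array that of day 9 passed (0.0344). Ccng1 remained higher here, at 17.2 to 20.5 and 16.9 to 21.8 against 11.9 and 10.8, with changes of 0.77 and 0.78. Against the day 1 control in place of the day 9 control, the Mdm2 changes were 0.58 and 0.43, both called.

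Over the 12 later gamma groups Mdm2 was called higher in 10, Ccng1 in 8, Cdkn1a and Btg2 in 7 each, and Trp53inp1 in none. Trp53inp1 was called lower in 6 groups, and Cdkn1a and Btg2 in 1 each, nfsa at day 9 after 30 Gy. Of all gene and group pairs 22.7% were called higher and 28.2% lower. Several Trp53inp1 calls rested on single arrays. That in the radiation-induced fibrosarcoma at day 8 was lost without the first control array (limma, adjusted p = 0.0564). Without the second control array, nfsa lost those at day 4 after 50 Gy (0.0769) and at day 9 after 30 and 50 Gy (0.326 and 0.273). Cdkn1a was below its day 1 level in 11 of 12 groups and Ccng1 in 10 of 12 (24.7% of all pairs were lower). The Cdkn1a fall in mmca at day 19 was lost without the first or second array of that day (limma, adjusted p = 0.0799 and 0.125). It was also lost without either day 1 array (-0.58 and -0.40). The Ccng1 fall in mmca at day 9 was lost without the third array of that day (0.0952) or either day 1 array (-0.50 and -0.51). In mca4 at day 11 the Ccng1 fall was lost without either day 1 array (-0.66 and -0.59). Mdm2 was above its day 1 level in 7 groups (20.5% of all pairs were higher) and below in 1, nfsa after 50 Gy at day 9. Its rise in nfsa at day 9 after 30 Gy was lost without either day 1 array (adjusted p = 0.143 and 0.0576).

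**Figure D4:**
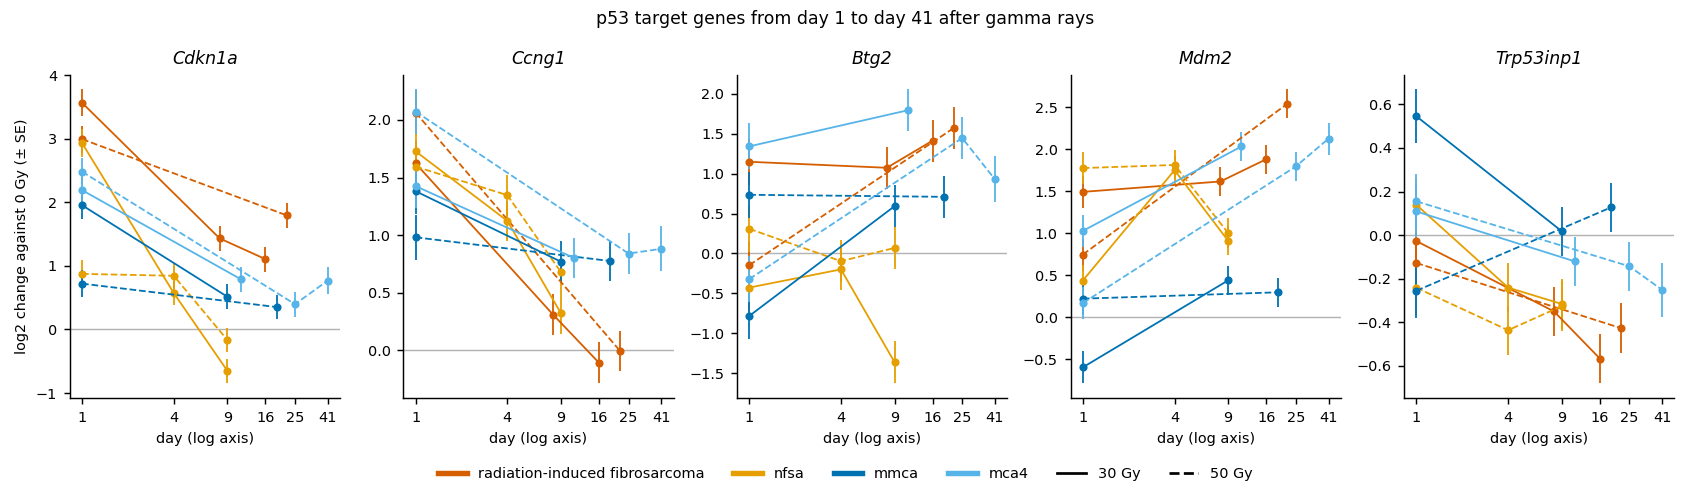
Change from unirradiated tumours (log2, ± SE) over days after gamma rays (log axis) for the 5 genes, by tumour; solid lines are 30 Gy and dashed lines 50 Gy, with later mmca groups set against the day 9 control. Cdkn1a and Ccng1 are highest at day 1, while Mdm2 in mca4 stands at 2.03 and 2.13 at days 11 and 41.

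No unirradiated squamous tumours were analysed here, so these levels are set against each other. At day 8 after 30 Gy scc7 was lower than nrs1 in Btg2 (0.790 and 0.820 against 2.62, 3.18 and 2.97; -1.86 ± 0.26) and in Ccng1 (15.1 and 16.6 against 57.0, 33.0 and 42.1; -1.44 ± 0.18). It was higher in Trp53inp1 (38.4 and 36.9 against 15.8, 21.0 and 15.0; 1.14 ± 0.11). None of these groups overlapped. For Cdkn1a the arrays read 51.3 and 50.7 against 71.6, 70.4 and 67.4 (-0.45 ± 0.19, adjusted p = 0.0446), and leaving out any 1 of the 5 arrays gave an adjusted p of 0.0582 to 0.144. So 4 of 5 members were called, when 55.2% of all genes were. Mdm2 did not differ beyond its spread (0.04 ± 0.17). Between days 35 and 23 after 50 Gy in scc7 none of the 5 members was called in limma and Trp53inp1 had an unadjusted p below 0.05; 0.441% of all genes were called.

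After carbon ions Cdkn1a and Btg2 were called higher at every time from 6 h to day 20 in both mammary carcinomas. The Btg2 calls were lost in the alternative that set its missing value, in mca4 at day 1, to the floor with quantile normalization. Cdkn1a in mmca read 27.7 and 27.3 at 0 h, 61.3 and 59.0 at 6 h, 45.4 and 54.4 at day 1, 59.3 and 56.2 at day 3, 49.6 and 57.2 at day 5, and 52.2 and 41.0 at day 20. The corresponding mca4 arrays read 31.3 and 33.9, then 63.0 and 66.5, 64.5 and 68.4, 64.4 and 61.0, 59.9 and 59.4, and 56.6 and 51.0. All irradiated arrays exceeded the 0 h arrays of their tumour, and the level at day 20 was the lowest of the irradiated means in each. The changes ran from 1.13 ± 0.13 at 6 h to 0.75 ± 0.13 at day 20 in mmca and from 1.03 ± 0.13 at day 1 to 0.72 ± 0.13 at day 20 in mca4. It was called in 10 of 10 comparisons, where 17.6% of all gene and time pairs were called higher and 24.3% lower.

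Btg2 in mmca read 1.09 and 1.20 at 0 h, 2.71 and 2.75 at 6 h, 1.74 and 1.84 at day 1, 2.37 and 2.45 at day 3, 1.97 and 1.93 at day 5, and 1.87 and 1.84 at day 20. It peaked at 6 h (1.25 ± 0.14) without overlap with any later pair. In mca4 it read 1.12 and 1.04, then 2.10 and 1.53, a single 1.51 at day 1, 2.23 and 1.95, 1.87 and 1.63, and 2.39 and 1.86. The first mca4 array of day 1 had no Btg2 value, so the fit used 1 array there, and that call (0.49 ± 0.17, adjusted p = 0.0445) was lost without either control (0.0798 and 0.187) or without that array (0.0609). With the missing value set to the floor and quantile normalization, the same change was -1.29 ± 0.55, and none of the 10 Btg2 changes in these courses was called (adjusted p = 0.134 to 0.529). All 12 mmca arrays had a Btg2 value. The fit holds 1 spread per gene over the carbon arrays, so the floored mca4 value also entered the SE of the mmca changes. In 1 fit over all arrays Btg2 was not called in mmca at day 1 (adjusted p = 0.134) or in mca4 at 6 h and day 1 (0.136 and 0.550).

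Ccng1 peaked at 6 h and was back at the control level by day 20. In mmca it read 16.0 and 15.8 at 0 h, 33.6 and 38.5 at 6 h, 26.2 and 27.1 at day 1, 27.1 on both arrays of day 3, 23.1 and 28.2 at day 5, and 16.3 and 16.7 at day 20. In mca4 it read 15.8 and 16.3, then 33.2 and 32.3, 30.0 and 26.7, 22.9 and 24.2, 24.1 and 23.9, and 17.1 and 17.9. The 6 h arrays were above all others of their tumour. The changes were 1.18 ± 0.10 and 1.03 ± 0.10 at 6 h and 0.06 ± 0.10 and 0.12 ± 0.10 at day 20, the last pair not called; after quantile normalization they were 0.20 and 0.21 and called (adjusted p = 0.0486 and 0.0375).

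Mdm2 reached its highest mean at day 5 in both mammary carcinomas. In mmca it read 68.1 and 55.7 at 0 h, 98.3 and 89.6 at 6 h, 95.0 and 91.9 at day 1, 125 and 104 at day 3, 123 and 124 at day 5, and 63.9 and 51.2 at day 20. The highest pairs were those of days 3 and 5, and day 20 overlapped 0 h. In mca4 it read 75.7 and 65.7, then 80.1 and 62.7, 84.3 and 74.7, 84.4 and 83.7, 101 and 92.5, and 50.9 and 62.5, so that 6 h and day 1 overlapped the controls. In mmca the changes up to day 5 were all called, from 0.60 ± 0.14 to 1.01 ± 0.14; those at 6 h and day 1 missed the threshold without the second control array (adjusted p = 0.0535 and 0.059). In mca4 day 5 was called higher (0.45 ± 0.14, adjusted p = 0.00538) and day 20 lower (-0.32 ± 0.14, 0.0377). The day 5 call was lost without the second control or the first day 5 array (0.0841 and 0.0533), and the day 20 call without the first control or the first day 20 array (0.26 and 0.365).

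The difference between mmca and mca4 in these changes was called once among 25 tests of the members, where 8.9% of all gene and time pairs were. It was Mdm2 at day 3 (0.63 ± 0.19, adjusted p = 0.0291), and it was lost without the first control or either day 3 array of mca4 (0.143, 0.0637 and 0.0725) and without the second control or the first day 3 array of mmca (0.172 and 0.184). With the replicate number as a block, 4 tests were called, adding Mdm2 at 6 h (0.60, adjusted p = 0.0301) and day 5 (0.55, 0.0312) and Btg2 at 6 h (0.51, 0.0166). Trp53inp1 lay between 11.4 and 17.2 on all 24 arrays of these courses. Its values in mca4 at days 5 and 20 were called lower (-0.27 ± 0.11 and -0.28 ± 0.11), and both calls were lost without either control array (adjusted p = 0.111 and 0.103 at day 5, 0.0869 and 0.0792 at day 20). Without either day 5 array the adjusted p at day 5 was 0.0594 and 0.164, and without the first day 20 array that at day 20 was 0.149. Markers moved in the same courses. At day 5 all 6 macrophage genes were higher in both tumours (median 1.28 in mmca and 1.91 in mca4), as were 5 and 6 of 6 T and NK cell genes (1.64 and 2.64), 4 of 5 squamous genes in each (3.26 and 2.87), 4 of 6 epithelial genes in each (2.05 and 1.43), and 7 and 8 of 8 skeletal muscle genes (0.51 and 0.97). The remaining skeletal muscle gene in mmca and the remaining squamous gene in mca4 were called lower. Of all genes 23.4% in mmca and 22.8% in mca4 were higher at that time, and 39.3% and 33.7% were lower. At day 1 in mca4 all 8 skeletal muscle genes were higher (median 2.16). Of all genes tested 1969 were called at that time, 68.8% of them higher. The part of such cells in the members' changes was not tested.

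**Figure D5:**
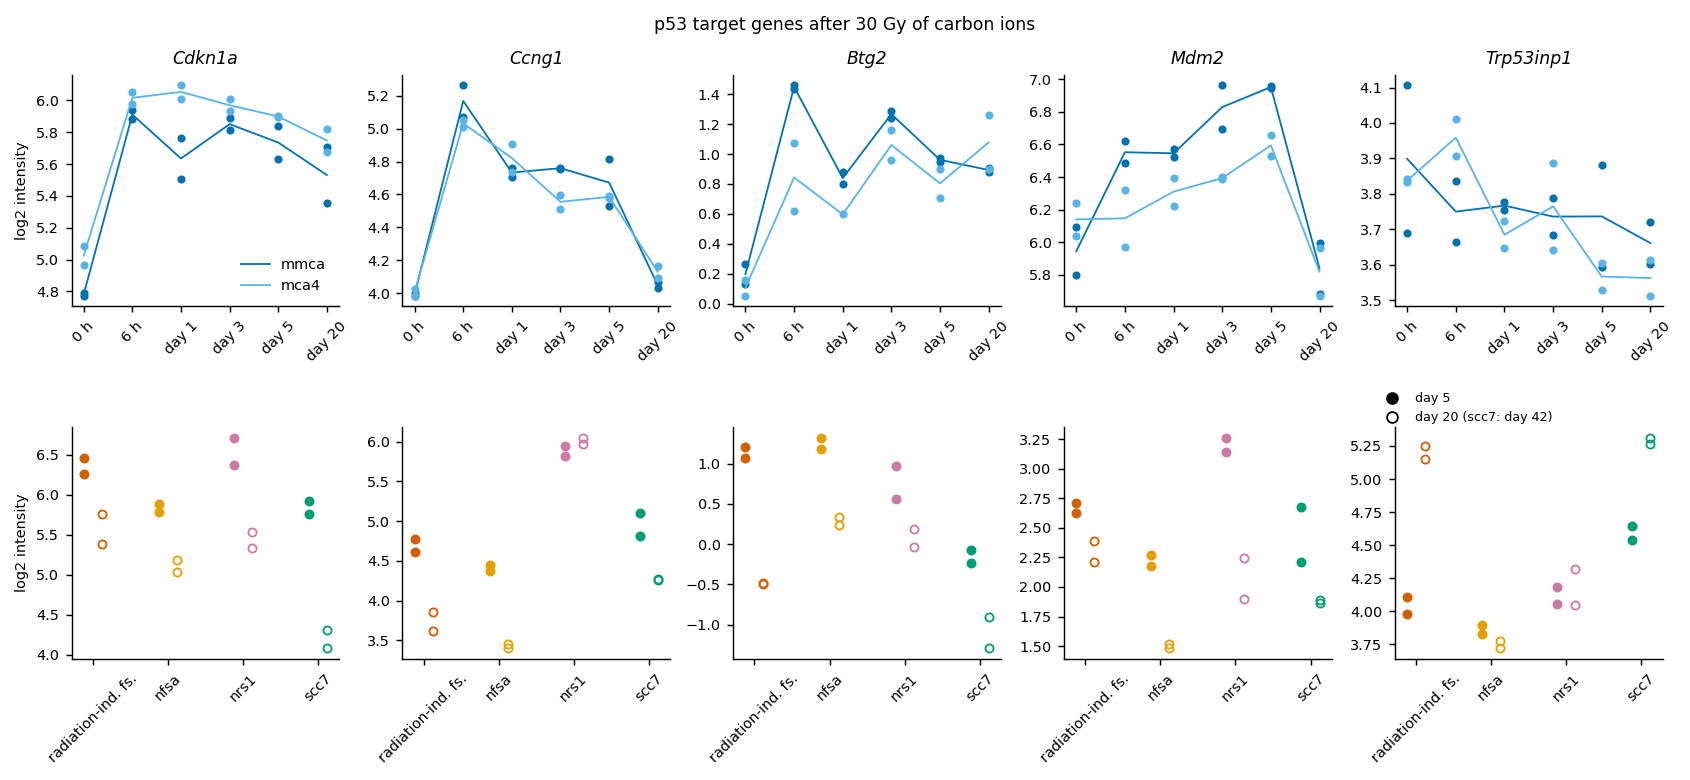
Log2 intensity of the 5 genes after 30 Gy of carbon ions. The upper row follows mmca and mca4 from 0 h to day 20. The lower row sets day 5 (filled) beside day 20 or, in scc7, day 42 (open). Ccng1 is highest at 6 h and near its 0 h level at day 20, while Mdm2 in mmca is highest at days 3 and 5.

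In the 4 tumours with carbon arrays at day 5 and later only, the members were mostly lower at the later time. Cdkn1a went from 76.7 and 88.0 to 41.9 and 54.4 in the radiation-induced fibrosarcoma, from 59.4 and 55.2 to 32.8 and 36.4 in nfsa, from 105 and 82.8 to 46.5 and 40.3 in nrs1, and from 60.6 and 54.5 at day 5 to 16.9 and 19.8 at day 42 in scc7. No later array reached the day 5 arrays of its tumour. The log2 changes in this order of tumours were -0.78, -0.73, -1.11 and -1.65, each with an SE of 0.13. Over these 4 comparisons Cdkn1a, Mdm2 and Btg2 were called lower in 4 of 4 and Ccng1 in 3 of 4, where 20.1% of all gene and tumour pairs were lower and 49.1% were called in either direction.

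Ccng1 in nrs1 was the exception, with 56.7 and 61.4 at day 5 and 62.9 and 66.3 at day 20 (0.13 ± 0.10). Trp53inp1 was called higher in the radiation-induced fibrosarcoma, from 15.8 and 17.2 to 35.5 and 38.0 (1.16 ± 0.11), and in scc7, from 25.0 and 23.2 to 38.5 and 39.8 (0.70 ± 0.11). The day 5 carbon arrays of the radiation-induced fibrosarcoma were thus below its gamma arrays, which read 29.3 or more, as a side-by-side value. Mdm2 in the radiation-induced fibrosarcoma (-0.37 ± 0.14) was not called without the second day 20 or the second day 5 array (adjusted p = 0.173 and 0.11), nor in scc7 (-0.57 ± 0.14) without the first day 5 array (0.085). All 6 T and NK cell genes fell between the same times in the radiation-induced fibrosarcoma, nfsa and scc7, with median changes of -3.10, -2.53 and -2.47. In nrs1 2 of 6 fell and 1 rose (median -0.09). Over all gene and tumour pairs of these carbon comparisons 20.1% were called lower. The part of T and NK cell genes in the members' falls was not tested.

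Other p53 genes were counted from lists at gamma day 1, in the mean of 4 tumours, where 23.2% of all genes were higher and 32.6% lower. The lists were chosen with earlier results of these data known, so these counts are a description only. Of 10 apoptosis targets tested, 8 were higher and 2 lower (median 0.33), led by the death receptor gene Fas (1.47 ± 0.08) and followed by Pidd1 (0.90), Pmaip1, which encodes the BH3-only protein Noxa (0.67), and Perp (0.58). Of 18 targets in repair and stress defence, 10 were higher and 2 lower (median 0.24), including the epoxide hydrolase gene Ephx1 (1.42), Dcxr (1.20), the translesion polymerase gene Polk (0.70) and Phlda3 (0.47). Of 9 activators and regulators of p53, 4 were higher and 2 lower (median 0.10); Mdm4, the Mdm2 relative that inhibits p53, was 0.60 higher, the p53 ubiquitin ligase gene Rchy1 0.53, and the checkpoint kinase genes Chek2 0.39 higher and Chek1 -0.56. Of 10 family relatives of the members 3 were higher and 4 lower (median 0.0007), with Mdm4 again first, Tob1 at -0.56, Cdkn2c at -0.45 and Cdkn2b at 0.32. The median over all genes was -0.04. In the radiation-induced fibrosarcoma, nfsa, mmca and mca4 apart, 7, 6, 3 and 3 apoptosis targets were higher and 1, 1, 0 and 1 lower. Repair and stress targets gave 5, 6, 7 and 6 higher and 3, 0, 3 and 0 lower. Of all genes 16.7%, 7.13%, 15.3% and 18.8% were higher in these tumours, and 29.7%, 16.0%, 12.3% and 18.8% lower.

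The listed cell-cycle genes (cyclins, kinases, and S, G2 and M phase genes) were divided at gamma day 1. The list was drawn up for repression through p21, but whether each of its genes is so repressed was not tested. Of 15 tested, 5 were higher and 6 lower in the mean of 4 tumours (median 0.01), the cyclin E genes Ccne2 (-0.86) and Ccne1 (-0.66) and E2f1 (-0.43) among the lower and Cdc25c (0.41) among the higher. In the radiation-induced fibrosarcoma 8 were lower and 1 higher (median -0.57), and in mmca 8 were higher and none lower (median 0.37). Of all genes 16.7% were higher and 29.7% lower in the first and 15.3% and 12.3% in the second, with medians of -0.11 and 0.01. At day 5 after carbon ions 14 of 15 were lower and 1 higher in both mmca and mca4, with medians of -1.12 and -0.92 beside all-gene medians of -0.13 and -0.10 and 39.3% and 33.7% of all genes lower. From day 5 to the later carbon time 13, 11, 13 and 10 of 15 rose in the radiation-induced fibrosarcoma, nfsa, nrs1 and scc7, where 35.6%, 21.9%, 34.8% and 23.8% of all genes rose.

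The members' patterns were compared as deviations of group means from the tumour's own mean, over 29 gamma groups of 4 tumours and 12 carbon groups of mmca and mca4. Groups of a tumour share its mean, so the correlations describe these groups only. Cdkn1a and Ccng1 ran together (r = 0.84 in gamma and 0.81 in carbon groups). Mdm2 and Btg2 gave 0.74 in gamma and 0.37 in carbon groups, whereas Cdkn1a against Mdm2 gave -0.004 and 0.54 and Cdkn1a against Btg2 0.02 and 0.86. Among 12813 genes ranked, the closest to Cdkn1a over gamma groups were 1600023N17Rik and Pmm1 (0.90 each), with carbon values of -0.16 and 0.30. Those closest to Ccng1 were 1700007K13Rik (0.93; carbon 0.71) and 9230114K14Rik (0.91; carbon 0.97), to Mdm2 Sh3bgrl (0.87; 0.43) and Snapin (0.86; -0.46), to Btg2 Ei24 (0.88; 0.41) and Rnf123 (0.88; 0.10), and to Trp53inp1 D430042O09Rik (0.88; 0.75) and Dbi (0.87; 0.22).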

How the data were processed

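Values are the linear intensities that the authors deposited for 1-colour CodeLink arrays, from RNA that the submitters extracted with ISOGEN reagent and RNeasy columns. How the authors corrected background or normalized the deposited intensities is not given in the sources used here. Of 36227 probes, 21615 had 1 gene symbol in the platform annotation, 681 had several and 13931 had none. Missing values stayed missing, lower values (1831 carbon values at or below 0 among them) were raised to 0.1269, the 5th percentile of positive values, and log2 of the deposited intensities was taken. Probes with values on 90% of arrays and a mean above the 20th percentile were kept, with the brightest per gene, which left 12962 genes. Gamma arrays (34 groups, 47 residual degrees of freedom) and carbon arrays (20 groups, 20 degrees of freedom) were fitted apart on group means with limma 3.58.1 in R 4.3.3 (lmFit, eBayes with a variance trend, 2-sided), and p-values were adjusted over all genes tested by Benjamini-Hochberg. A gene was called at an adjusted p below 0.05. The number of arrays, 2 or 3 a group, limits the precision. No pair of arrays in a group held the same values. Tables and figures were made with Python 3.11.15, pandas 2.3.3 and matplotlib 3.10.9.

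The named genes were the 5 members in every comparison, and for each pathway list up to 4 genes with the largest absolute change in the gamma day 1 mean. Lists were p53 regulators, apoptosis targets, repair and stress targets, family relatives and cell-cycle genes. Further lists held markers of epithelial, mesenchymal, squamous, skeletal muscle, macrophage, and T and NK cells. The members and the lists were chosen with earlier results of these data known. Of 8 mesenchymal genes 7 were tested, of which 1 was higher and none lower in the gamma day 1 mean. The fit was tested on simulated data over 12962 genes. In the gamma day 1 mean 89% of changes of 0.5 and 96% of changes of 1 (log2) were recovered. The values were 81% and 100% in carbon mmca at day 1, and 26% and 95% in the carbon difference between mmca and mca4 at day 1. They were 55% and 91% in gamma mmca at day 1, and 53% and 96% in the difference between tumour types. False calls were 6.7% of calls in carbon mmca and 6.41% in gamma mmca, and 3.65% to 3.97% in the other comparisons named. The simulated noise was independent between arrays and fewer genes were changed than in the data, so these shares describe the simulation only.

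Replicate numbers in the titles were checked for pairing by the correlation of same-numbered arrays' deviations. In carbon mca4 all 15 pairs of groups were over 0.1 (median r 0.203, lowest 0.131), and in carbon mmca 12 of 15 were (median r 0.279). Same-numbered arrays thus deviated together to some extent there. No label states a pairing, what they shared was not tested, and the main fit held no block. In no gamma tumour were all pairs of groups over 0.1. Alternatives covered normalization, floor, filter, array weights, the replicate block, the arrays entering the fit, 1 value per group, and leaving out each array.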

Additional observations from a re-analysis of the deposited data

Results flagged for a closer look

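Several differences in response between tumours passed the test of the difference itself. Cdkn1a changed more in the fibrosarcomas than in the mammary carcinomas at gamma day 1, by 0.72 (log2), and so did Mdm2, by 1.06. On doses of like missing share the Cdkn1a difference was 0.11 (adjusted p = 0.737). Within the fibrosarcomas, Cdkn1a changed more in the radiation-induced tumour than in nfsa, by 1.12, a call lost without the first unirradiated nfsa array. Within the mammary carcinomas, Cdkn1a (-0.94) and Mdm2 (-0.76) changed less in mmca than in mca4. The first was lost on doses of like missing share and the second without the first unirradiated mca4 array, and none of these 5 gamma differences was called with 1 value per group. After carbon ions the change of Mdm2 at day 3 was 0.63 larger in mmca than in mca4, the opposite order of the same tumours at gamma day 1, and these contrasts were not tested against each other. That carbon call was lost when any 1 of 5 arrays was left out and in 1 fit over all arrays (adjusted p = 0.347). Unirradiated Mdm2 in mca4 was 14.4 and 20.5 on gamma arrays and 75.7 and 65.7 on carbon arrays.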

How the results depend on the processing

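Cdkn1a and Ccng1 kept their calls in the gamma day 1 mean under all alternatives run on it, while the number of members called there fell from 4 to 2 with 1 value per group, when Mdm2 (adjusted p = 0.0903) and Btg2 (0.403) missed the threshold. With 1 value per group the 15 tests of differences between tumours called 0 in place of 5, and none had an unadjusted p below 0.05; differences between doses within a tumour could not be fitted that way. The carbon differences between mmca and mca4, 1 of 25 called, became 4 after quantile normalization, 2 with array weights, 4 with the replicate block and 0 with 1 fit over all arrays. On doses of like missing share 3 values turned to a call of the other sign: Mdm2 (-0.60 against 0.02) and Btg2 (-0.78 against 0.29) in mmca, and Mdm2 in the radiation-induced fibrosarcoma minus nfsa (-0.71 against 0.19); Btg2 in carbon mca4 at day 1 gave -1.29 (adjusted p = 0.134, not called) with missing values at the floor and quantile normalization together. With the replicate block 3 of 415 gene comparisons lost their call, none of them in the carbon arrays, and 6 gained one. Trp53inp1 in carbon mca4 from 6 h to day 1 gained its call with that block (-0.27, adjusted p = 0.0346).

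Leaving out each array, with comparisons that do not use it kept, gave these counts of member calls: 4 to 4 in the gamma day 1 mean, 14 to 15 in the radiation-induced fibrosarcoma, 10 to 12 in nfsa, 7 to 12 in mmca and 13 to 14 in mca4 at day 1; 12 to 13 between doses; 4 to 5 between tumour types; 41 to 47 for later groups against unirradiated and 46 to 49 against day 1; 0 to 0 between mmca controls; 16 to 18 between unirradiated tumours; 3 to 4 in squamous tumours; 21 to 24 and 18 to 22 in the carbon courses of mmca and mca4; 0 to 3 between those courses; and 16 to 17 for later carbon times. Of 2761 such gene comparisons, 107 lost and 26 gained a call. Quantile normalization moved the split of higher and lower genes by over 10 points in 24 of 83 comparisons and the median of all genes by at most -0.15 or 0.12; in the radiation-induced fibrosarcoma at day 1 the higher share went from 36.0% to 49.1% and in nfsa from 30.8% to 43.4%. No called member changed sign under it.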
